A study of Mus musculus with 8 samples.

Results

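The iron handling genes of macrophages are described here in mouse bone marrow cells that differentiated for 3 days with or without induced loss of Thoc5. The set holds 9 of the 31708 gene names on the array: Cp, Slc40a1, Slc11a1, Slc11a2, Hmox1, Spic, Fth1, Ftl1 and Tfrc. Every non-control probe with one of these names was taken, which gave 14 of the 39429 probes of the array. All 14 passed the filter on dim probes.

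Macrophages take up iron bound to transferrin through the transferrin receptor (Tfrc) and iron held in haem by engulfing red cells. Haem oxygenase 1 (Hmox1) opens haem and frees its iron, the transporters Slc11a1 and Slc11a2 move iron out of endosomes and phagosomes, and ferritin, built from heavy (Fth1) and light (Ftl1) chains, stores it. Ferroportin (Slc40a1) is the known iron exporter of the cell, and the copper protein ceruloplasmin (Cp) oxidises iron so that transferrin can bind it. The transcription factor Spic is known in mice for its role in the red pulp macrophages of the spleen, which recycle iron from red cells. Iron regulatory proteins control the translation of ferritin and ferroportin mRNA and the stability of Tfrc mRNA.

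Dual-colour arrays were hybridised in 2 biological experiments, 8 in all. The groups were flox cells with tamoxifen, flox cells without tamoxifen, control cells with tamoxifen and control cells without tamoxifen, with 2 arrays each. Flox cells came from ERT2 Cre Thoc5 (flox/flox) mice and control cells from ERT2 Cre mice, so both genotypes carried the Cre recombinase that tamoxifen activates, on the background C57BL/6 x B6:129 Ola. Neither the promoter that drives Cre, the tamoxifen dose nor the age of the mice is given in the sources used here. Cytoplasmic RNA of day 3, under the macrophage growth factor CSF-1, was hybridised on each array together with day 0 RNA from matching cells, and each day 0 RNA served on 2 arrays. Values are log2 ratios of day 3 over day 0 unless they are named as channel levels, and of the 2 values of a group the first is experiment 1 throughout. A tamoxifen effect is the ratio with tamoxifen minus the ratio without it. A probe is called changed where limma's adjusted p, by Benjamini-Hochberg over all tested probes, is under 0.05.

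The targeted gene followed the labels. The Thoc5 ratios were -3.04 and -3.02 in flox cells with tamoxifen, -0.74 and -0.77 in flox cells without it, -0.21 and -0.15 in control cells with tamoxifen and -0.40 and -0.28 in control cells without it. A channel had from 51.2% to 57.9% of its probes above background, and saturation was marked on 0 spots. All 11 measured macrophage marker genes were above background on every array at both days. In the tamoxifen effect in flox cells 2 of the 11 were called higher and 2 lower, where 4.66% and 4.01% of all genes were. The 2 arrays of a group correlated over probes at 0.921 in flox cells with tamoxifen and at 0.783 in control cells without tamoxifen, which were the least alike pair. The labels call the experiments biological, but with 2 arrays a group the error of every value rests on few samples, and the number of arrays limits the precision.

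Ceruloplasmin had the largest response to tamoxifen among the 14 probes. It is read by 2 probes on chromosome 3 (mm9, plus strand), probe 1 at chr3:19889071-19889130 and probe 2 at chr3:19907511-19907570, with 18380 bases between them. Probe 2 is annotated to transcript variant 1. The sequences are shown because the level of signal behind the probes differs: probe 1 was above background in every channel, and probe 2 in both day 3 channels of 3 groups but in 0 of 2 in flox cells with tamoxifen and at day 0 on no array. Probe 1 is shown whole and probe 2 by its first 30 bases, 5′ to 3′, with nothing capitalised.
Cp probe 1: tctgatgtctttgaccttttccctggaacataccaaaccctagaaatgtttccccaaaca
Cp probe 2: gcttgcagtgtctatatgtactagagataa

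The Cp probe 1 ratios were 1.65 and 0.66 in flox cells with tamoxifen, 3.18 and 2.61 in flox cells without tamoxifen, 3.76 and 2.72 in control cells with tamoxifen and 4.06 and 2.85 in control cells without tamoxifen. Cp was thus higher at day 3 than at day 0 on all 8 arrays, and both flox arrays with tamoxifen lay below all 6 others. At the level of the channels, the day 3 RNA gave log2 intensities of 10.43 and 9.97 in flox cells with tamoxifen, against 12.38 and 12.15 in flox cells without it. The day 3 to day 0 change was called in each group, with log2 values of 1.16, 2.90, 3.24 and 3.45 in that order of groups (SE 0.11 each). The tamoxifen effect in flox cells was -1.74 ± 0.16 (SE), a 3.34-fold lower ratio with tamoxifen (limma, adjusted p = 0.0045). In control cells it was -0.30 in experiment 1 and -0.13 in experiment 2, and it was not called. The difference between the effects of the genotypes was -1.53 ± 0.23, which passed the threshold narrowly (adjusted p = 0.0474). It was not called in a fit without a term for the experiment (adjusted p = 0.64), where 0.107% of all probes were called. With an array left out, which leaves a group with 1 array, it lay between -1.79 and -1.27. Among flox and control cells that both had tamoxifen, the flox ratio was lower by 4.24-fold (log2 -2.08 ± 0.16, adjusted p = 0.0046).

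The dim probe of Cp passed the filter only through day 3 channels of the groups where it was brighter. Its ratios were 0.30 and 0.08 in flox cells with tamoxifen, against 0.91 and 0.73 in flox cells without it. Since its flox signal with tamoxifen was not well above background, only a bound holds for the day 3 level. It was at least 1.23-fold lower with tamoxifen in flox cells and at least 1.60-fold lower in flox than in control cells with tamoxifen. The limma fit called the ratios in both comparisons (adjusted p = 0.0218 and 0.0088). These p-values do not test the bounds, and the ratios rest on a day 0 signal not well above background on any array. A bound sets the bright group's mean against the lowest signal well above background on the dim group's arrays, or against the probe's own signal where that is higher. Against day 0, its day 3 level was at least 1.53-fold higher in flox cells without tamoxifen, 1.60-fold in control cells with tamoxifen and 1.97-fold in control cells without tamoxifen.

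**Figure D1:**
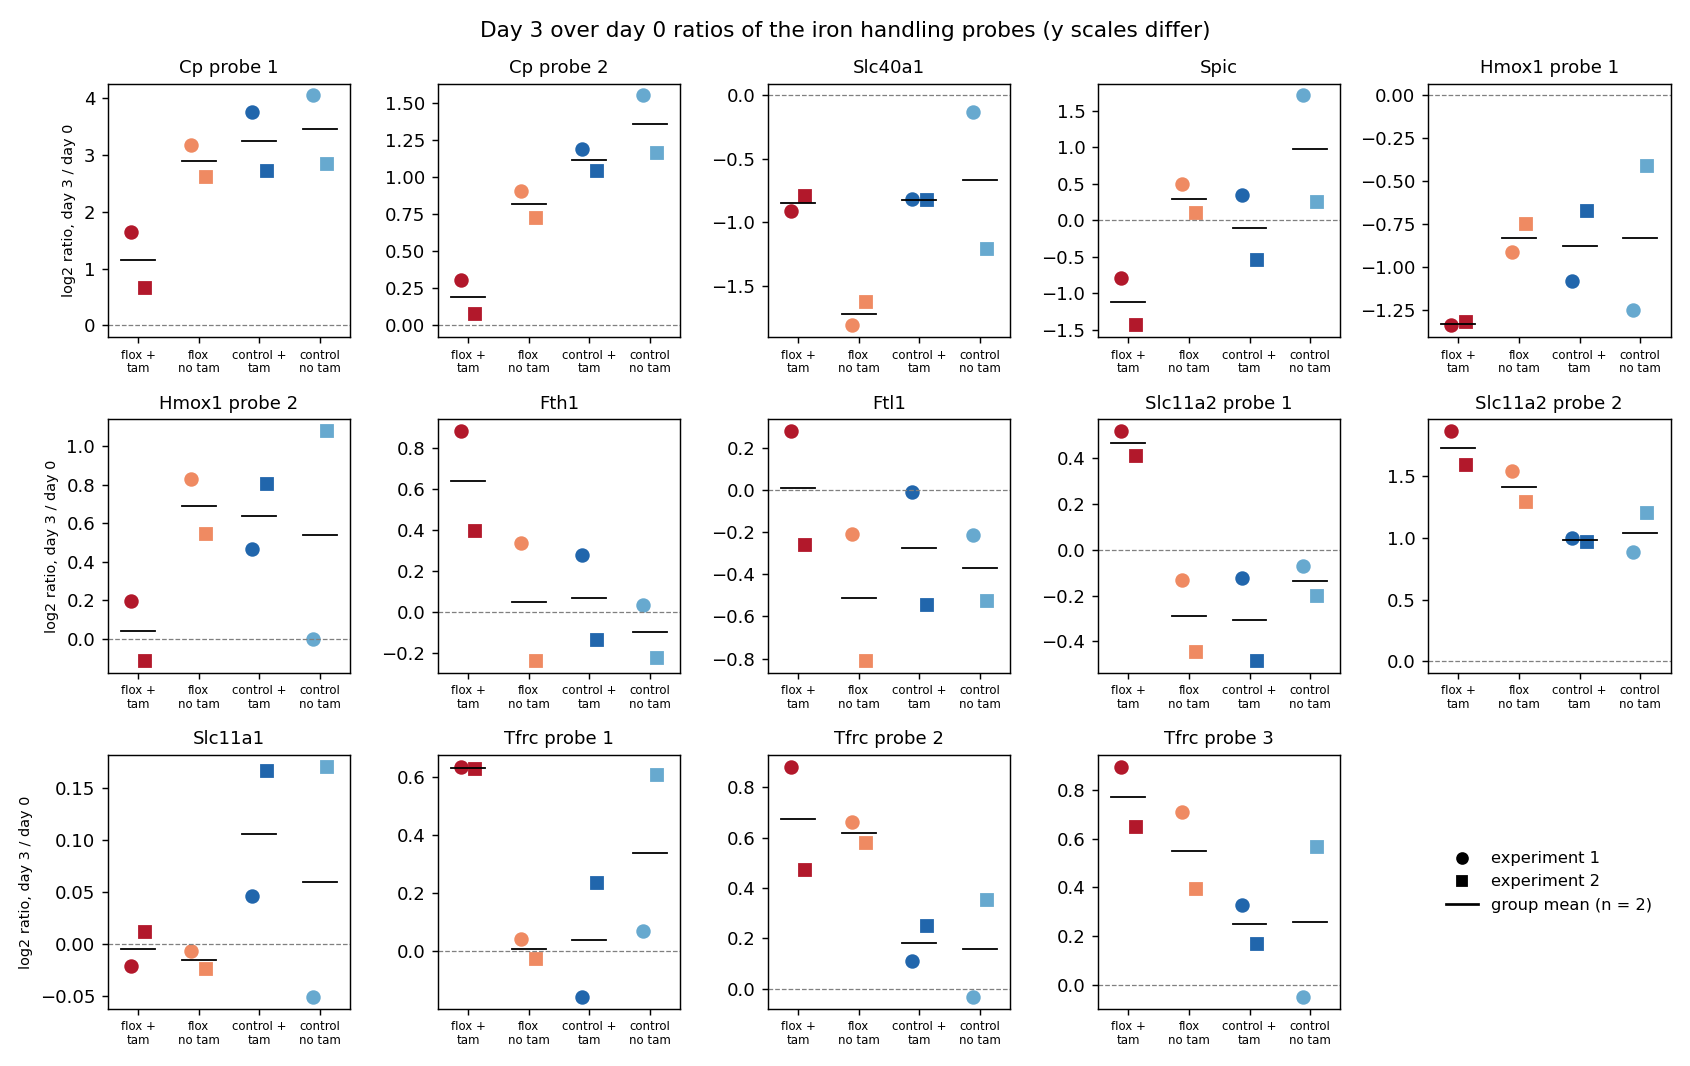
Log2 ratio of day 3 over day 0 (y axis, own scale per panel) for each of the 14 probes in flox cells with and without tamoxifen and control cells with and without tamoxifen, one symbol per array, circles for experiment 1 and squares for experiment 2, with the group mean as a line. In the Cp probe 1 panel the flox arrays with tamoxifen sit at 1.65 and 0.66 and the other 6 arrays between 2.61 and 4.06.

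Ferroportin is read by 1 Slc40a1 probe at chr1:45965255-45965314 (mm9, minus strand). Its ratios were -0.91 and -0.79 in flox cells with tamoxifen, -1.81 and -1.63 in flox cells without tamoxifen, -0.82 and -0.83 in control cells with tamoxifen and -0.13 and -1.21 in control cells without tamoxifen. The exporter was lower at day 3 than at day 0 on all 8 arrays and the fall was called in each group, at -0.85, -1.72, -0.82 and -0.67 (SE 0.21 each). The flox arrays without tamoxifen had the lowest ratios, and they did not overlap with any other group. The tamoxifen effect in flox cells, 0.87 ± 0.30, was not called (adjusted p = 0.135), and neither was the difference of effects, 1.02 ± 0.43 (adjusted p = 0.327). Without the control array without tamoxifen of experiment 2, which leaves 1 array in that group, that difference was 1.61. Flox cells without tamoxifen against control cells without tamoxifen gave -1.68 in experiment 1 and -0.42 in experiment 2, a mean of -1.05 that was not called (adjusted p = 0.115). With the 4 flox arrays fitted by themselves the flox tamoxifen effect, still 0.87, was called (adjusted p = 0.0012). That fit called 27.7% of all probes, beside 8.64% in the fit of all arrays.

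Spic, at chr10:88138053-88138112 (mm9, minus strand), had ratios of -0.79 and -1.44 in flox cells with tamoxifen, 0.50 and 0.09 in flox cells without tamoxifen, 0.34 and -0.54 in control cells with tamoxifen and 1.71 and 0.25 in control cells without tamoxifen. In flox cells Spic fell by day 3 with tamoxifen, at -1.11 ± 0.17, and the 0.30 without tamoxifen was not called. In control cells without tamoxifen it rose by 0.98. The tamoxifen effect on Spic in flox cells was a called -1.41 ± 0.24 (2.66-fold lower, adjusted p = 0.0202). In control cells its effect was -1.37 in experiment 1 and -0.79 in experiment 2, with a mean of -1.08 that was not called (adjusted p = 0.484). The difference between the effects of the genotypes was -0.33, with a 95% interval of -1.13 to 0.48, so a difference for Spic was not shown. The 4 other measured genes fixed as markers of red pulp macrophages gave 2 called lower and 0 called higher in the flox tamoxifen effect. Over all genes 4.01% were called lower and 4.66% higher. In control cells 0 of the 4 were called, with a median of -0.26, where 0% of all genes were. In flox cells the effect on Siglec1, read by its brightest probe, was -1.27 and that on Treml4 -1.40. The other 2 were not called: Vcam1 was at 0.26, and Itgad was not well above background in flox cells without tamoxifen.

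Hmox1 is read by 2 probes on chromosome 8 (mm9, plus strand), probe 1 at chr8:77624207-77624266 and probe 2 at chr8:77620797-77620856, with 3350 bases between them. They gave different answers on the same RNA, which is why their sequences are shown, the first 30 bases of probe 1 and probe 2 whole, with nothing capitalised.
Hmox1 probe 1: atggttgtaagcatccatgttgactgacca
Hmox1 probe 2: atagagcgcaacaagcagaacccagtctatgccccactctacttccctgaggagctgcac

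The Hmox1 probe 1 ratios were -1.34 and -1.32 in flox cells with tamoxifen, -0.91 and -0.75 in flox cells without tamoxifen, -1.08 and -0.67 in control cells with tamoxifen and -1.25 and -0.41 in control cells without tamoxifen. Probe 2 gave 0.19 and -0.12 in flox cells with tamoxifen, 0.83 and 0.55 in flox cells without tamoxifen, 0.47 and 0.80 in control cells with tamoxifen and -0.00037 and 1.08 in control cells without tamoxifen. Probe 1 was below 0 on 8 of 8 arrays and called lower at day 3 in every group. Probe 2 was above 0 on 6 arrays, and its rise was called only in flox cells without tamoxifen, at 0.69 (adjusted p = 0.0417). Both probes had lower ratios with tamoxifen in flox cells, with no overlap between the groups, but neither passed: probe 1 gave -0.50 (adjusted p = 0.18) and probe 2 -0.65 (adjusted p = 0.29).

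Both ferritin chains were called higher with tamoxifen in flox cells. The Fth1 probe lies at chr19:10059485-10059544 (mm9, plus strand) and the Ftl1 probe at chr7:52713309-52713368 (mm9, minus strand). For Fth1 the ratios were 0.88 and 0.39 in flox cells with tamoxifen, 0.34 and -0.24 in flox cells without tamoxifen, 0.28 and -0.14 in control cells with tamoxifen and 0.034 and -0.23 in control cells without tamoxifen. For Ftl1 they were 0.28 and -0.26 in flox cells with tamoxifen, -0.21 and -0.81 in flox cells without tamoxifen, -0.010 and -0.55 in control cells with tamoxifen and -0.21 and -0.53 in control cells without tamoxifen. Within each experiment the flox array with tamoxifen had the highest ratio of both chains, although only for Fth1 did the 2 flox groups not overlap. The flox tamoxifen effect was 0.59 ± 0.11 for Fth1 (1.51-fold, adjusted p = 0.0304) and 0.52 ± 0.11 for Ftl1 (1.43-fold, adjusted p = 0.0416).

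For that effect, the day 0 readings of the same RNA differed between the flox arrays. Their part in the effect was not tested. The same flox day 0 RNA gave a Fth1 log2 level of 17.44 on the array with tamoxifen and 17.84 on the array without it in experiment 1, and 17.92 and 18.15 in experiment 2. In the day 3 channel Fth1 stood at 18.32 and 18.31 in flox cells with tamoxifen, against 18.18 and 17.91 without it. With the day 3 channel alone the effect was 0.28 for Fth1 (adjusted p = 0.147) and 0.21 for Ftl1 (adjusted p = 0.279), and neither was called. The Ftl1 probe is annotated to further predicted transcripts, and a probe named Ftl2 lists the Ftl1 transcript too, so these near-identical copies cannot be told apart; the Ftl2 probe gave 0.57 in the same comparison (adjusted p = 0.0429). The Ftl1 probe holds the letters AATAAA, the form that polyadenylation signals most often take, and 30 of its bases are shown with those letters in capitals. On the printed strand 3 of the 14 probes hold them, as do 12.6% of all 39429 probes, and on the opposite strand 0 of the 14 and 4.03% of all probes do. Whether they act as a signal was not tested.
Ftl1: ggaccaagtaaaAATAAAgctttttgagac

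**Figure D2:**
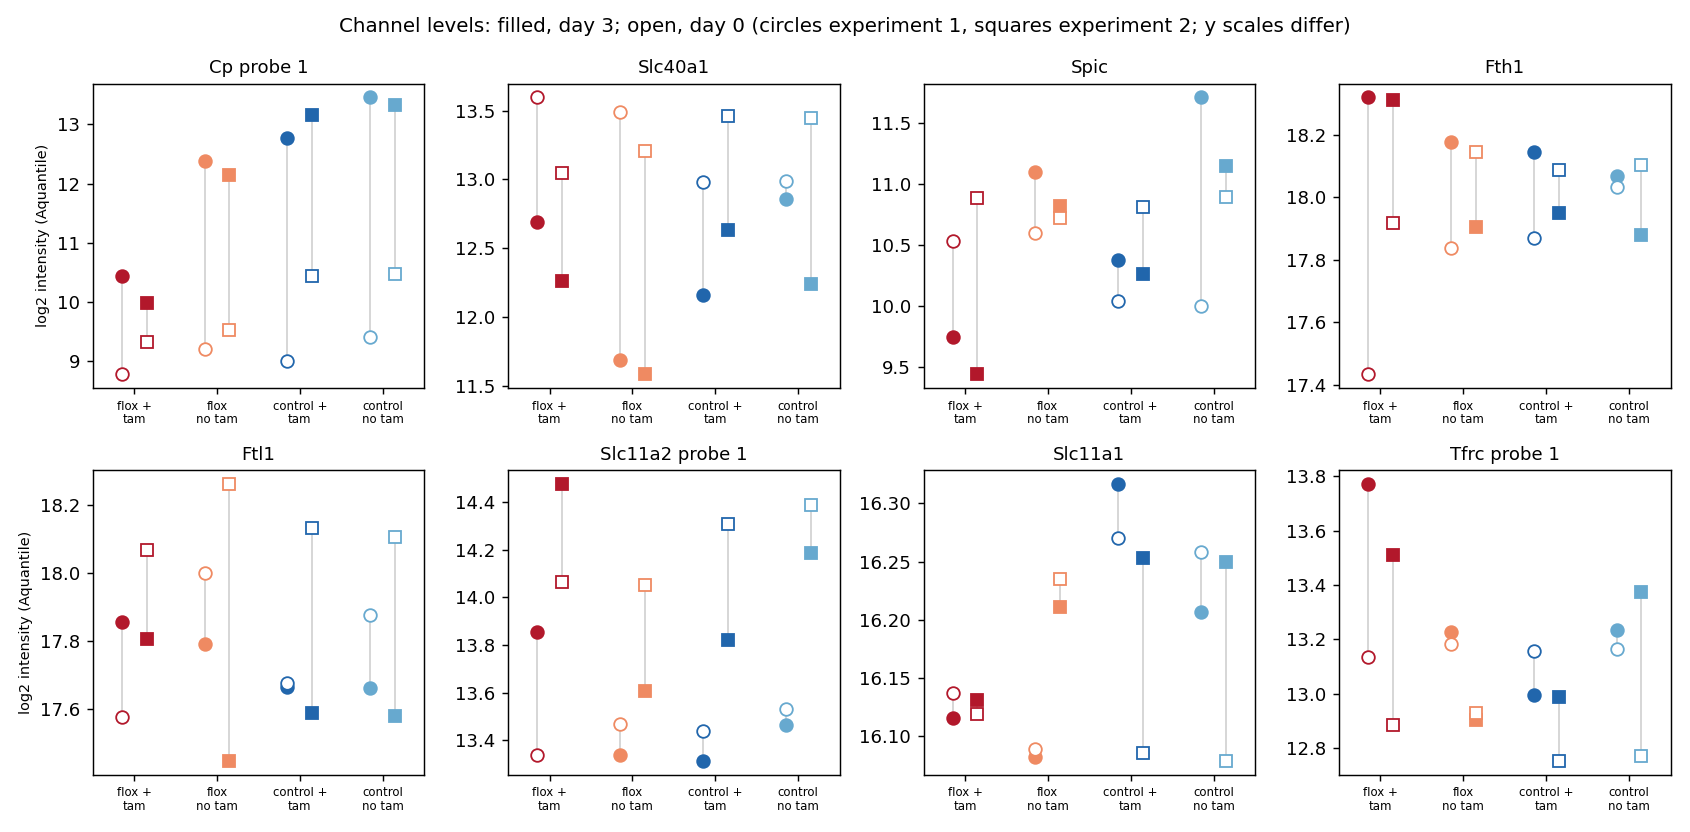
Log2 intensity (y axis, own scale per panel) of 8 probes in the day 3 channel (filled) and the day 0 channel (open) of each array, for flox and control cells with and without tamoxifen, circles for experiment 1 and squares for experiment 2. In the Fth1 panel the open flox symbols with tamoxifen, 17.44 and 17.92, lie below the open flox symbols without tamoxifen, 17.84 and 18.15, although each pair is the same RNA.

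Slc11a2, the endosomal iron transporter also called DMT1, is read by 2 probes on chromosome 15 (mm9, minus strand), probe 1 at chr15:100218333-100218392 and probe 2 at chr15:100240516-100240575, with 22123 bases between them. The sequences are shown because the probes again moved apart over the 3 days. Probe 1 is shown by 30 bases around its letters AATAAA, in capitals, and probe 2 whole.
Slc11a2 probe 1: catccttgttatAATAAAgttcatgcttaa
Slc11a2 probe 2: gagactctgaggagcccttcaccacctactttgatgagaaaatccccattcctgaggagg

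The Slc11a2 probe 1 ratios were 0.52 and 0.41 in flox cells with tamoxifen, -0.13 and -0.44 in flox cells without tamoxifen, -0.12 and -0.49 in control cells with tamoxifen and -0.068 and -0.20 in control cells without tamoxifen. Only the flox arrays with tamoxifen were above 0. Probe 2 gave 1.87 and 1.59 in flox cells with tamoxifen, 1.54 and 1.29 in flox cells without tamoxifen, 1.00 and 0.97 in control cells with tamoxifen and 0.88 and 1.20 in control cells without tamoxifen. Its rise at day 3 was called in every group, whereas probe 1 was called higher in flox cells with tamoxifen (0.47), called lower in flox cells without it (-0.29) and in control cells with it (-0.31), and not called in control cells without it. The flox tamoxifen effect was 0.75 ± 0.11 for probe 1 (1.69-fold, adjusted p = 0.0142) and 0.31 ± 0.16 for probe 2, not called (adjusted p = 0.302). With the day 3 channel alone the effect for probe 2 was 0.58 and was called (adjusted p = 0.0276), where 13.6% of all probes were. Both probes were called higher in flox than in control cells with tamoxifen, by 0.77 (adjusted p = 0.0139) and by 0.74 (adjusted p = 0.0378). Neither was called there in the fit without a term for the experiment. Without tamoxifen probe 2 was higher in flox cells by 0.37, which was not called (adjusted p = 0.236). The difference of effects for probe 2, 0.37 ± 0.23, was not called either (adjusted p = 0.529). The difference of effects for probe 1, 0.92 ± 0.16, missed the threshold (adjusted p = 0.0617). With the day 3 channel alone that difference was 0.95 and passed narrowly (adjusted p = 0.0473), where 3.32% of all probes were called.

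Slc11a1, the phagosomal metal transporter also called NRAMP1, was the steadiest member. Its probe at chr1:74432161-74432220 (mm9, plus strand) had ratios between -0.051 and 0.17 on the 8 arrays, and it was called in none of the 10 comparisons. Its tamoxifen effect in flox cells was 0.011, with a 95% interval of -0.25 to 0.27.

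Tfrc is read by 3 probes on chromosome 16 (mm9, plus strand), probe 1 at chr16:32632255-32632314, probe 2 at chr16:32620470-32620529 and probe 3 over chr16:32624877-32625093. Probe 1 is spotted 10 times. Its ratios were 0.63 and 0.63 in flox cells with tamoxifen, 0.042 and -0.027 in flox cells without tamoxifen, -0.16 and 0.23 in control cells with tamoxifen and 0.068 and 0.61 in control cells without tamoxifen. The receptor probe rose by a called 0.63 ± 0.12 in flox cells with tamoxifen, while the other 3 groups had no called change. The tamoxifen effect in flox cells, 0.62 ± 0.17, was not called (adjusted p = 0.0776). With the day 3 channel alone this effect was 0.58 and was called (adjusted p = 0.0404), where 13.6% of all probes were. Probes 2 and 3 gave flox tamoxifen effects of 0.055 and 0.22, both not called, and both were called higher at day 3 in flox cells with tamoxifen, at 0.67 and 0.77, and in flox cells without it, at 0.62 and 0.55. The control day 0 RNA of experiment 2 gave a probe 2 level of 7.57 on the array with tamoxifen and 8.60 on the array without it, a gap of 1.03 between readings of 1 RNA.

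Counted together, 6 of the 14 probes, or 42.9%, were called in the flox tamoxifen effect, 3 higher and 3 lower, where 8.64% of all tested probes were called, 4.51% higher and 4.13% lower. They belong to 5 of the 9 genes: Fth1, Ftl1 and Slc11a2 were higher, and Cp and Spic lower. Among the 6 is Cp probe 2, which was not well above background in flox cells with tamoxifen or at day 0. The median over the 14 probes was 0.14, beside -0.011 over all probes. In control cells 0 of the 14 were called by limma, where 0% of all probes were, and 1 had an unadjusted p under 0.05. The difference of effects was called for 1, Cp probe 1, where 0.951% of all probes were called. Flox against control cells with tamoxifen gave 6 called probes, 3 higher and 3 lower, where 10.6% of all probes were called, 5% higher and 5.55% lower, while flox against control cells without tamoxifen gave 0 (2.31% of all probes, with 5 of the 14 at an unadjusted p under 0.05). The comparisons of flox cells with tamoxifen share those arrays. The fit without the replicate block, which is the term for the experiment, called 0 of the 14 in the flox tamoxifen effect, where it called 2.51% of all probes. A fit that leaves out an array leaves a group with 1 array, so it cannot decide whether a call holds. Effect sizes of such fits are given below.

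**Figure D3:**
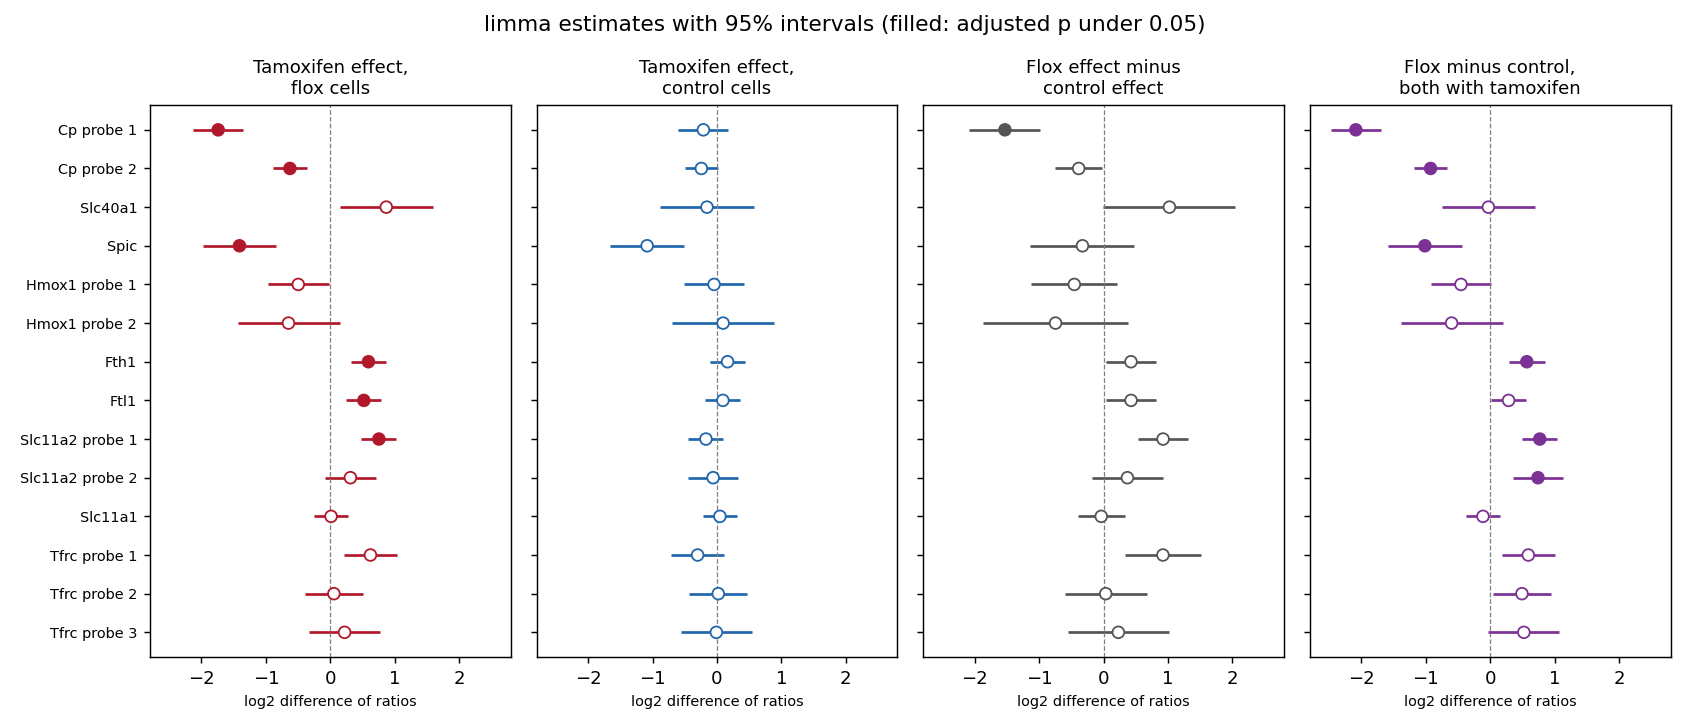
Log2 differences of ratios (x axis) with 95% intervals from limma for the 14 probes, in panels for the tamoxifen effect in flox cells, the tamoxifen effect in control cells, the difference of these effects, and flox minus control cells with tamoxifen, with filled symbols where the adjusted p was under 0.05. The flox panel has 6 filled symbols, the control panel 0, and the difference panel 1, Cp probe 1 at -1.53, while the Cp probe 2 values in the panels with flox cells with tamoxifen rest on signals not well above background there.

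Over the 3 days, 10 of the 14 probes (71.4%) were called in flox cells with tamoxifen, where 59.7% of all probes were called. In flox cells without tamoxifen 10 were called (57.9% of all probes), in control cells with tamoxifen 7 (50%, beside 58.2% of all probes) and in control cells without it 7 (57.5% of all probes). Cp, Slc40a1, Slc11a2 probe 2 and Hmox1 probe 1 went the same way in every group, Cp and Slc11a2 probe 2 higher and the others lower. At day 0, flox and control cells were compared over 4 RNAs: 0 of the 14 probes were called by limma (0.888% of all probes), and 2 had an unadjusted p under 0.05. The largest day 0 difference in size was that of Cp probe 1, at -0.62 (adjusted p = 0.356).

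Beyond the members, a list of 69 other genes of iron and haem handling was set beside them, of which 60 were measured above the filter. In the flox tamoxifen effect 7 rose, 3 fell and 50 were not called, with a median of 0.095. Over all genes, each by its brightest probe, 8.66% were called, 4.66% higher and 4.01% lower, with a median of -0.0074. The storage and regulation genes gave 1 called of 7: Ncoa4, the receptor that carries ferritin to the lysosome, was higher by 1.24 (adjusted p = 0.0089). The uptake and transport genes gave 4 called of 17. The zinc and iron transporter Slc39a14 was lower, at -1.23 (adjusted p = 0.0097), and so was the mitochondrial iron importer Slc25a37, at -0.75, whereas the lysosomal channel Mcoln1 was higher by 0.77 and the endosomal ferrireductase Steap3 by 0.45.

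The haem uptake, breakdown and export genes gave 3 called of 12: the haem exporter Flvcr1 was higher by 1.01 (adjusted p = 0.0126), the transporter Abcg2 higher by 0.62 and the haem-binding protein Hebp2 lower, at -0.66. The haem and iron-sulfur synthesis genes gave 1 of 13, Uros, an enzyme of haem synthesis, at 0.64. Genes of the BACH1 and NRF2 axis, known to control the transcription of Hmox1 and the ferritins, gave 1 of 11, Nfe2l2 (NRF2) itself, at 0.65. In control cells 0 of the 60 were called by limma, where 0% of all genes were. In the difference of effects 0 were called too, where 0.985% of all genes were. Flox against control cells with tamoxifen gave 7 higher, 4 lower and 49 not called, where 5.13% of all genes were called higher and 5.59% lower.

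**Figure D4:**
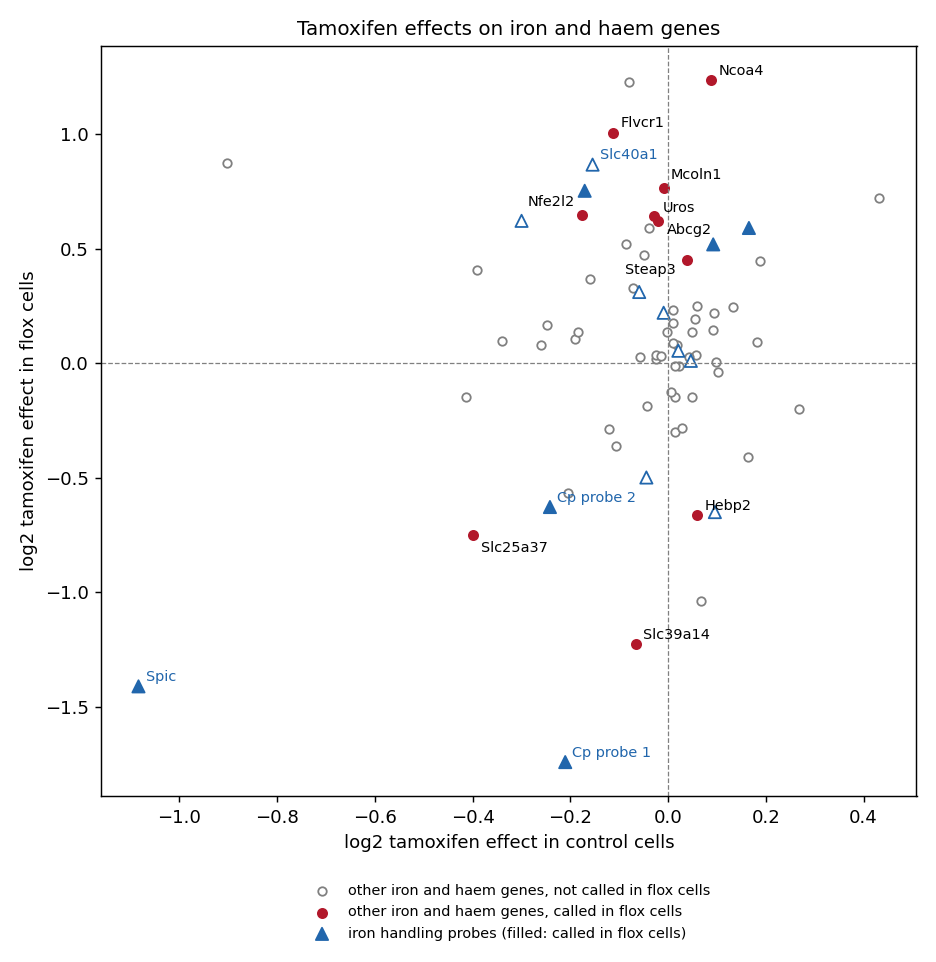
Log2 tamoxifen effect in flox cells (y axis) against the log2 tamoxifen effect in control cells (x axis), with circles for 60 other iron and haem genes and triangles for the 14 iron handling probes, filled where called in flox cells. Ncoa4, at 1.24, and Cp probe 1, at -1.74, are at the ends of the y axis, 0 symbols were called in control cells, and Cp probe 2, dim in flox cells with tamoxifen, is drawn at its fitted value.

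At day 3 more genes were lower than higher in every group, both in this list and over all genes. In flox cells with tamoxifen 19 of the list rose, 21 fell and 20 were not called, where 25.3% of all genes rose and 33.3% fell. In flox cells without tamoxifen 8 rose and 30 fell (23.8% and 33.2% of all genes), in control cells with tamoxifen 9 rose and 30 fell (23.8% and 33.6%), and in control cells without tamoxifen 9 rose and 25 fell (23.2% and 33.9%). Those with the smallest p in flox cells with tamoxifen included the lactoferrin gene Ltf at -3.69 and the siderophore carrier Lcn2 at -1.91, both also on the list of neutrophil genes, and the haemoglobin carrier Hp at -2.02. Slc25a37 at -2.04, Slc39a14 at -1.43, Txnrd1 at -1.31, Keap1 at -0.77 and Slc25a28 at -0.70 were lower too, and Ncoa4 was higher at 1.06. The ferrireductase Steap4 was not well above background at day 3, so that its level was at least 1.52-fold lower than at day 0, where 1 of 2 arrays measured it.

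Markers of other cells moved over the same days. The summed log2 level of the 12 neutrophil and granulocyte genes was 16.02 and 15.84 at day 3 and 19.77 and 19.57 at day 0 in flox cells with tamoxifen. In control cells without tamoxifen it was 16.14 and 16.12 at day 3 and 18.97 and 19.19 at day 0. At day 0, the channel that every ratio rests on, 7 of the 12 were called higher in flox than in control cells and 0 lower, with a median of 1.03, where 0.951% of all genes were called. Of the 10 measured erythroid genes, 7 were called lower and 1 higher at day 3 in flox cells with tamoxifen, where 33.3% and 25.3% of all genes were. In the flox tamoxifen effect 0 of the 10 were called, where 8.66% of all genes were. Of 8 proliferation genes, 8 were called lower at day 3 in each group, where 33.2% to 33.9% of all genes were. In the flox tamoxifen effect 1 of the 8 was called lower, where 4.01% of all genes were. The summed level of 9 stromal and endothelial genes at day 3 was 14.18 and 15.48 in flox cells with tamoxifen, against 14.34 and 13.77 in flox cells without it. It was thus lower with tamoxifen in experiment 1 and higher in experiment 2. In the flox tamoxifen effect 2 of the 9 were called lower, where 4.01% of all genes were. The part of these cells in the results on iron genes was not tested, and in bulk RNA fewer cells of a type and less RNA per cell cannot be told apart.

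The genes whose ratios ran most like each member over the 8 arrays were found among 1504 probes with an SD of at least 0.5, as a description over arrays that share groups, experiments and day 0 RNA. Cp, with the widest spread of the members (SD 1.10), ran most like Mfng and F13a1, both at Pearson's r = 0.987, and 166 probes had an r above 0.9 with it. Spic ran most like Cnksr3 (0.973) and Gm9733 (0.972), with 59 such probes. Hmox1 probe 1 ran most like Mef2a (0.986) and Odc1 (0.983), and Slc11a2 probe 1 most like Mefv (0.980) and Fbxo36 (0.973). Fth1 ran most like Gmpr and Cbx6 (both 0.963), Ftl1 most like LOC100042220 (0.964) and Lyz1 (0.959), and Tfrc probe 1 most like Bcar3 (0.965) and Cxcl3 (0.940). Slc40a1 had the loosest companions, Vmn1r48 (0.911) and H2-Q8 (0.897), with 1 probe above 0.9. Slc11a1, whose ratios barely varied (SD 0.086), ran most like Igh-VJ558 (0.962) and Map2k3 (0.912).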

How the data were processed

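Per the file headers, the authors scanned the arrays with Agilent Feature Extraction 10.7.3.1, which detrended the signals and normalized the dyes with LOWESS. The deposited files hold spot and local background intensity, processed intensity, the log10 ratio of red over green, and flags of 0 or 1. In the value table deposited with them, the log10 ratio runs day 3 over day 0. Mean intensities were background corrected with normexp (offset 50), log2 ratios were normalized by loess in limma 3.58.1 (R 4.3.3, data.table (version 1.17.8), statmod 1.5.0) and turned to day 3 over day 0, outlier spots were left out, and spots of a probe were averaged. Channel levels are log2 after Aquantile. A probe was kept if some group had it well above background on both its arrays at day 3 or day 0 (22407 of 39429). The limma fit had a mean for each of the 4 groups plus an experiment term (3 residual degrees of freedom); experiment, slide and dye direction are 1 split here. Tests are two-sided, with Benjamini-Hochberg adjustment over all kept probes, in 10 comparisons.

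The series' design text says that a replicate number is 1 biological experiment, so the numbers pair the arrays; deviations of same-numbered arrays from their group means correlated at 0.275 to 0.724. Each probe was tested by itself; 1 probe per gene, the brightest, was used for other lists. Symbols were updated from RefSeq (GRCm38.p6, names only) for 26412 probes; positions are on mm9, the build of the array annotation, and exon or UTR boundaries were not analysed here. The members, lists and alternatives were chosen with earlier results of these data known. Named genes were Thoc5, all members with all probes, up to 10 called list genes with the smallest p in the flox tamoxifen effect and in flox cells with tamoxifen at day 3, the 2 probes most like each member, and Siglec1, Treml4, Vcam1, Itgad and Ftl2, which were chosen after their values were seen. The method was tested on simulated data.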

Additional observations from a re-analysis of the deposited data

Results flagged for a closer look

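The tamoxifen effect on Cp probe 1 differed between the genotypes by a test of the difference itself. The flox effect minus the control effect was -1.53 on the log2 scale (SE 0.23, 95% interval -2.08 to -0.98, limma, adjusted p = 0.0474). The effect was -1.53 and -1.96 in the 2 experiments of flox cells, against -0.30 and -0.13 in control cells. Without the replicate block it was not called (limma, adjusted p = 0.64), where 0.107% of all probes were called. With an array left out the values were -1.79 to -1.27. Such a fit leaves a group with 1 array, so it cannot decide whether the call holds.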

How the results depend on the processing

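Over the 14 probes, 2508 values were recomputed under the alternatives, of which 2220 kept direction and call, 159 lost the call, 52 gained one, 74 changed sign with no call on either side and 3 reversed. The 3 were day 3 against day 0 with median centring in place of loess: Fth1 in control cells without tamoxifen (0.40), and Ftl1 in control cells with tamoxifen (0.23) and without it (0.094). The 2508 include values whose outcome was fixed. Aquantile leaves the ratios as they are, so its 126 values could not differ. The value table holds Agilent's own log ratios, so its 126 values repeat those. Neither is a separate check. The replicate block decided the calls: without it, the flox tamoxifen effect had 0 called members (2.51% of all probes), the difference of effects 0 (0.107%) and flox against control with tamoxifen 1 (2.75%). That 1 was Cp probe 2, whose signal was not well above background in flox cells with tamoxifen or at day 0. The flox tamoxifen effect on Cp probe 1 lost its call without the block (adjusted p = 0.147). It kept the call in the other alternatives that had 2 arrays in each group. The 8 fits that left out an array leave a group with 1 array, so they cannot decide whether a call holds. Their effect sizes are given here. The flox tamoxifen effect lay between -1.71 and -1.11 for Spic and between 0.67 and 0.83 for Slc11a2 probe 1. It lay between 0.50 and 0.69 for Fth1 and between 0.45 and 0.59 for Ftl1. Cp probe 2, a bound, kept its direction in all 8. Fth1 and Ftl1 lost their call in that effect with median centring, Agilent's log ratios and the day 3 channel alone. With median centring, where 6.74% of all probes were called, Slc40a1 (0.90) and Hmox1 probe 2 (-0.74) gained a call in that effect. For flox against control with tamoxifen, Slc11a2 probe 1 lost its call with median centring and Slc11a2 probe 2 with Agilent's log ratios. The cause of these changes was not tested.

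The number of called members in the flox tamoxifen effect was 11 with the compared arrays alone, where the share of all probes called was 27.7%, beside 8.64% with all arrays. It was 2 with a log2 change of at least 1 (2.52%). In the difference of effects it was 0 with Agilent's processed log ratios and with the deposited value table (0.107% of all probes each). It was 3 with the day 0 RNA as a random block (4.61%) and 2 with the day 3 channel alone (3.32%). For flox against control with tamoxifen it was 3 with Agilent's log ratios, 3 with the value table (6.33% each) and 2 with a change of at least 1 (2.62%). Without tamoxifen it was 2 with the day 3 channel alone (10.3%) and 1 with median centring (3.62%), and in the control tamoxifen effect 1 with median centring (0.152%). For day 3 against day 0, a change of at least 1 left 4 probes in flox cells with tamoxifen (12.3% of all probes) and 3 in flox cells without it (11.1%). In control cells such a change left 2 with tamoxifen (11.1%) and 3 without it (10.6%). The fit with 1 probe per gene tests only 9 member probes. It called 5 of the 9 in flox cells without tamoxifen (57.2% of all probes). All 81 values of that fit kept direction and call, so the lower count reflects the fewer probes. With an array left out these counts were 6 to 10, 5 to 11, 4 to 9 and 6 to 9 in the same order. The compared arrays alone leave no residual degrees of freedom for day 3 against day 0 in a group, so that fit was not run.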
